A study of Homo sapiens with 2 samples.

Results

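The D cyclins CCND1, CCND2 and CCND3, the E cyclins CCNE1 and CCNE2, the kinases CDK4 and CDK6 and the pocket proteins RB1, RBL1 and RBL2 form the core of the G1 control of the cell cycle. These 10 genes, of 19775 measured, were taken by their symbols, and all 28 probe sets that the platform annotation assigns to exactly 1 of them were used. RNA came from HEK293T cells, a human embryonic kidney cell line, into which a plasmid had been brought with the polymer polyethylenimine. One condition was the plasmid pcDNA3.1-IRX1::GFP, which encodes the homeobox factor IRX1 fused to GFP, and the other was pcDNA3.1-GFP, which encodes GFP alone (GFP control). In both conditions cells were taken 48 h after transfection and sorted for GFP, and 1 HG-U133 Plus 2.0 array per condition was analysed here. The transfection is transient, and the array's probe set for IRX1 itself was above background on neither array, at 57.0 with IRX1::GFP and 33.1 in the GFP control, so that this probe set does not check the labels. HEK293T cells carry the SV40 large T antigen and the E1A protein of adenovirus, both of which bind the pocket proteins.

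In G1, D cyclins accumulate when cells receive growth signals and activate CDK4 and CDK6. These kinases phosphorylate RB1 and its relatives RBL1 (p107) and RBL2 (p130), which in their unphosphorylated form hold back the E2F transcription factors. E cyclins, which are themselves E2F targets, then activate CDK2 and drive entry into S phase. The array measures the amount of RNA of these genes and neither protein nor phosphorylation, the level at which the kinases and pocket proteins are mostly controlled.

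Start sites of 7 of the 10 genes were found in the RefSeq promoter table of GRCh38.p14, with 11 windows of 300 bases, 250 before the start and 50 from it on. CCND1, CCND2 and CCNE2 had no window and were not searched. The windows were searched on both strands for the E2F motif (TTTCCCGC, TTTGGCGC, TTTCGCGC or TTTGCCGC), the E-box CACGTG that MYC binds, the motif of the early growth response factors (EGR) (GCGTGGGCG or GCGGGGGCG) and the cell cycle homology region TTTGAA. The 3 windows below are shown because RBL1 is a known E2F target, CDK4 a known MYC target, and EGR1 and EGR3 were higher on these arrays, and the capitals mark the match. The CCND3 window (chr6:42048639-42048938, minus strand, 1 of 3 CCND3 windows) holds an EGR motif on the opposite strand at position -215. The RBL1 window (chr20:37095948-37096247, minus strand) holds 2 E2F motifs close together, at -26 and -16. The CDK4 window (chr12:57752261-57752560, minus strand) holds 3 E-boxes, at -216, -196 and -101.
CCND3: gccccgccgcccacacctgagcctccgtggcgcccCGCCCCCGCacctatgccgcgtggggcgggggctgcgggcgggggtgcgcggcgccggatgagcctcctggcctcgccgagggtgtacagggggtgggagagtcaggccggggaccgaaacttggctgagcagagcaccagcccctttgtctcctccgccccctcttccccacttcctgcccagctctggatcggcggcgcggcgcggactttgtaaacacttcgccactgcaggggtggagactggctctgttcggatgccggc
RBL1: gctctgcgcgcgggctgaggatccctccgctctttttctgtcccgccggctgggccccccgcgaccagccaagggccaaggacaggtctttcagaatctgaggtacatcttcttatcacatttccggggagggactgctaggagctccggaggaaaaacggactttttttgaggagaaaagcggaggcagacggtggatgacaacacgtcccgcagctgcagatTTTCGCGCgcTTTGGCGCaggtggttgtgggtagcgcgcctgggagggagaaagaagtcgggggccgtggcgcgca
CDK4: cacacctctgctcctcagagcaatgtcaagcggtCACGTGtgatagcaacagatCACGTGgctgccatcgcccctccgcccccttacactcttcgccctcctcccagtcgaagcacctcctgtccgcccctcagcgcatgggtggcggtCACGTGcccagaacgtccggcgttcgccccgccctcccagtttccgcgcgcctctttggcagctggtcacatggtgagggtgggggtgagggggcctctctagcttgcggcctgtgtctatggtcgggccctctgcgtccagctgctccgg
The E2F motif was found in 3.31% of all 35116 windows of this length, the E-box in 7.26%, the EGR motif in 5.77% and TTTGAA in 15.2%. Among the other windows of these genes, 1 of CDK6 held an E-box and 1 of RBL2 held TTTGAA. The CCNE1 window and the RB1 window held none of these letters, and the RB1 and CCND3 windows lie at starts inside these genes, not at their first bases. A match describes the letters only, and binding was not measured.

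On the brightest probe set of each gene, CCND1 was 4.62-fold higher with IRX1::GFP, CCND3 1.92-fold, CCNE1 1.67-fold and CCNE2 1.51-fold. Of all 12193 genes kept, 2695 were at least as high as CCNE2. CCND2 and CDK4 differed by less than 1.1-fold. RBL1 was 1.36-fold and CDK6 1.12-fold lower on that probe set, while the other 2 probe sets of CDK6 past the filter were 1.66-fold and 1.53-fold lower and those of RBL1 disagreed. Each gene was represented by the probe set with the highest mean of both signals, and genes whose mean reached 183, the median over all probe sets, were kept. All 10 genes passed this filter, CCND1 only through its signal with IRX1::GFP. A call was made at 2-fold. CCND1 was the 1 gene of 10 called higher, against 10.4% of all 12193 genes, and none was called lower, against 5.34%. The median log2 ratio, taken as IRX1::GFP divided by GFP control, was 0.07 over the 10 genes and 0.07 over all genes. Over the 5 cyclin genes it was 0.74, with all 5 above 0, and over the kinases and pocket proteins -0.09, with 1 of 5 above 0. Of all 12193 genes, 6600 were above 0, and CCND2, at 0.09, lay near the median of all genes. As means over probe sets RBL1 and RBL2 also lay above 0, at 0.04 and 0.12. The 1 of 5 thus depends on the choice of the probe set. Each condition is a single array without a replicate, so that neither a test between conditions nor an error between cultures is possible. As a yardstick, the log2 ratios of probe sets for the same gene differed with an SD of 0.49 in 5930 genes. That SD includes isoform effects and does not cover variation among cultures.

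The 2% trimmed mean of the signals was 1000.14 with IRX1::GFP and 1000.13 in the GFP control, and the median signal was 195 with IRX1::GFP and 171 in the GFP control. Background, set as the 90th percentile over 107 probe sets of olfactory receptors, which this cell type is not known to use, was 179 with IRX1::GFP and 143 in the GFP control. A fold is measured where both signals were above it, is a lower bound against it where 1 was, and is left out where neither was. Of 7 genes listed as markers of HEK293T cells 5 were above background on both arrays, while PAX2 and LHX1 were not above it in the GFP control. Of 4 blood genes analysed 2 were above background on neither array, PTPRC among them, and CD14 read 856 with IRX1::GFP and 327 in the GFP control. The summed signal of 3 fibroblast genes was 2857 with IRX1::GFP and 989 in the GFP control, of which COL1A1 alone gave 2571 with IRX1::GFP and 631 in the GFP control. For ACTB the signal at the 3-prime end divided by that at the 5-prime end, a sign of RNA quality, was 1.64 with IRX1::GFP and 3.23 in the GFP control. For GAPDH it was 1.01 with IRX1::GFP and 1.22 in the GFP control. The part of these differences in the results was not tested.

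CCND1 (gene ID 595), which encodes cyclin D1, the D cyclin most widely induced by growth signals, had the largest log2 ratio of the 10 genes. Its brightest probe set read 716 with IRX1::GFP and 155 in the GFP control, a log2 ratio of 2.21. The other read 567 with IRX1::GFP and 93.2 in the GFP control, at least 3.95-fold higher. Both probe sets were thus clearly above background with IRX1::GFP, and in the GFP control 1 was just above it and 1 below it. With background at the 95th percentile of the olfactory receptor probe sets, 169 in the GFP control, the brightest was at least 4.23-fold higher. This level was chosen after the data were seen. The log2 ratio of CCND1 exceeded the SD of 0.49, and 142 of 12193 genes had one as large or larger. Both of its probe sets read under the filter level of 183 in the GFP control. CCND1 thus passed the filter only through its signal with IRX1::GFP. A gene this dim in the GFP control is kept only where IRX1::GFP is higher. The rank and the shares given next are therefore partly set by the filter and are no support for the difference. Of all genes, 1.59% were at least 4-fold higher. Among the 4515 genes of mean signal between 183 and 905, the range in which CCND1 lies, 16.7% were at least 2-fold and 2.95% at least 4-fold higher. Dim genes like CCND1 thus passed 2-fold more often than the 7678 brighter ones, of which 6.68% did.

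**Figure D1:**
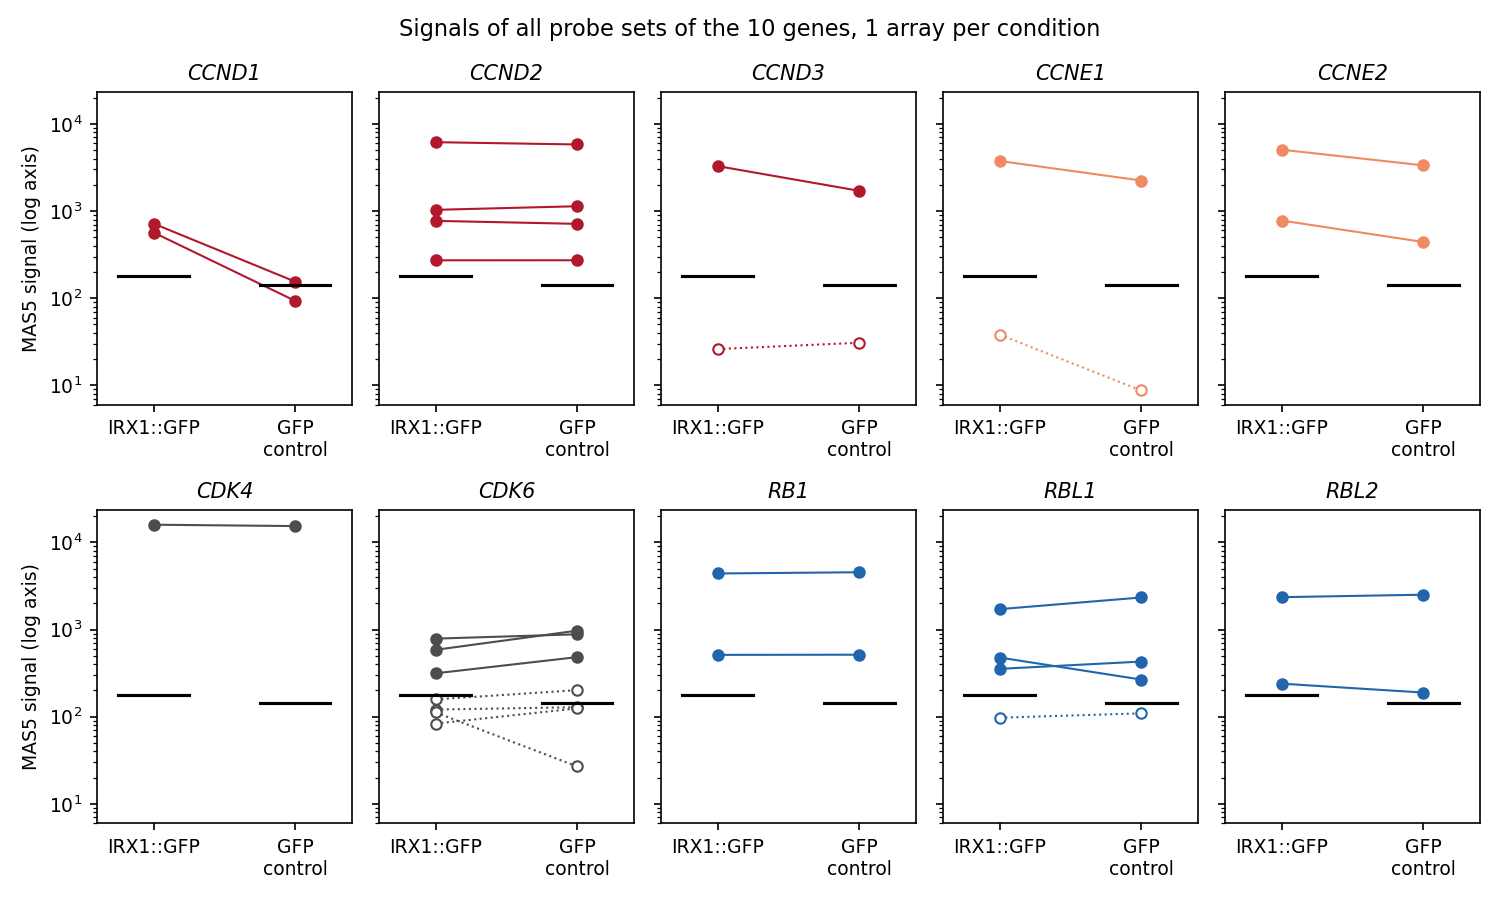
Each panel shows 1 gene, with the MAS5 signal on a log axis for IRX1::GFP and GFP control, 1 array each. Lines join the signals of 1 probe set (solid and filled where it passed the filter, dotted and open where it did not), and black bars mark background. Only for CCND1 do the lines cross from well above background with IRX1::GFP, at 716 and 567, to about background in the GFP control, at 155 and 93.2.

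CCND2 (gene ID 894), which encodes the D cyclin of several stem and progenitor cells, was measured by 4 probe sets, all past the filter. The brightest read 6175 with IRX1::GFP and 5811 in the GFP control, and the next 1033 with IRX1::GFP and 1136 in the GFP control. The others read 772 with IRX1::GFP against 713 in the GFP control, and 272 on both arrays. The log2 ratios lay between -0.14 and 0.11, with an SD of 0.11 among them, and this was the narrowest range of any member with 3 or more probe sets past the filter. CCND3 (gene ID 896), another D cyclin, read 3280 with IRX1::GFP and 1708 in the GFP control, a log2 ratio of 0.94, just inside 2-fold. Its second probe set read 26.1 with IRX1::GFP and 30.8 in the GFP control, above background on neither array, so the value of CCND3 rests on 1 probe set. The log2 ratio of CCND3 was 1.01 after loess of the ratio on the mean signal, which made it a second called gene. Of the 3 D cyclins CCND1 and CCND3 thus lay beyond the SD between probe sets and CCND2 did not.

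The E cyclins CCNE1 (gene ID 898) and CCNE2 (gene ID 9134), the partners of CDK2 at the entry into S phase, were higher by similar amounts. CCNE1 read 3754 with IRX1::GFP and 2242 in the GFP control, a log2 ratio of 0.74. Its second probe set, at 38.0 with IRX1::GFP and 8.73 in the GFP control, was not above background on either array. CCNE2 read 5060 with IRX1::GFP and 3346 in the GFP control on the brighter probe set. The dimmer one gave 778 with IRX1::GFP against 442 in the GFP control. The log2 ratios of CCNE2 were 0.60 and 0.82, so both of its probe sets moved the same way. All 3 values lay above the SD of 0.49 and within 2-fold, and 83.0% of all genes had a lower log2 ratio than CCNE1 and 77.9% a lower one than CCNE2. In RNA of a mixed culture, more cells in late G1 and more cyclin E RNA per cell cannot be told apart.

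CDK4 (gene ID 1019), a kinase that D cyclins activate, was measured by 1 probe set. It read 15978 with IRX1::GFP and 15415 in the GFP control, a log2 ratio of 0.05. CDK6 (gene ID 1021), the second such kinase, had 7 probe sets, of which 3 passed the filter and 3 were above background on neither array. The brightest read 787 with IRX1::GFP and 882 in the GFP control, the next 586 with IRX1::GFP and 971 in the GFP control, and the third 315 with IRX1::GFP and 483 in the GFP control. All 3 were lower with IRX1::GFP, by log2 ratios of -0.17, -0.73 and -0.62, and none by 2-fold. The choice of the probe set thus set the value of CDK6, and the mean over the 3 was -0.50. A further one read 158 with IRX1::GFP, not above background, and 202 in the GFP control, at least 1.13-fold lower. One dim probe set of CDK6 went against the others, at 112 with IRX1::GFP and 26.8 in the GFP control, but neither signal was above background.

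RB1 (gene ID 5925) encodes the retinoblastoma protein, the tumour suppressor that holds back E2F factors in G1. Its brighter probe set read 4405 with IRX1::GFP and 4549 in the GFP control. The dimmer one gave 512 with IRX1::GFP against 515 in the GFP control. The log2 ratios of RB1, -0.05 and -0.01, were far smaller than the SD between probe sets, and the brighter one changed sign after quantile normalization (0.01) and loess (0.02). RBL2 (gene ID 5934), the pocket protein that prevails in resting cells, read 2355 with IRX1::GFP and 2512 in the GFP control on its brighter probe set. On its dimmer one it gave 239 with IRX1::GFP against 189 in the GFP control. The probe sets of RBL2 differed in sign, at -0.09 and 0.34, and their mean was 0.12. No difference beyond the SD between probe sets was seen for RB1 or RBL2 on this pair of arrays.

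RBL1 (gene ID 5933), the pocket protein whose gene is known to be activated by E2F factors in growing cells, and whose window above holds 2 E2F motifs, had the lowest log2 ratio of the 10 genes on the brightest probe sets, while CDK6 had it as the mean over probe sets. The brightest probe set of RBL1 read 1716 with IRX1::GFP and 2335 in the GFP control, a log2 ratio of -0.44. A second one read 354 with IRX1::GFP and 429 in the GFP control, 1.21-fold lower. Another went the other way, at 477 with IRX1::GFP and 267 in the GFP control, 1.79-fold higher. The SD between these 3 probe sets was 0.70, above the SD of 0.49 over all genes, and the log2 ratio of RBL1 was 0.04 as their mean. A direction for RBL1 can therefore not be given. The remaining probe set of RBL1 was above background on neither array.

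**Figure D2:**
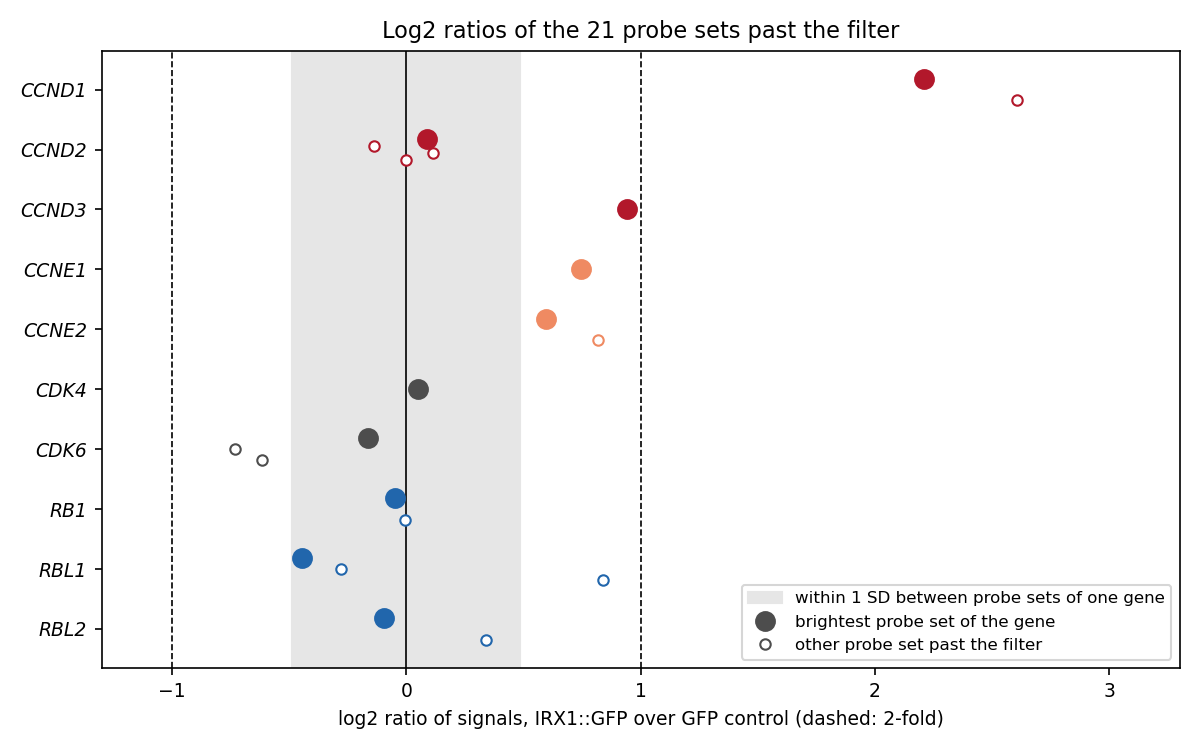
Log2 ratio, IRX1::GFP divided by GFP control (x), for the 21 of 28 probe sets past the filter, by gene (y), with the brightest probe set of a gene as a large filled point. The grey band is 1 SD between probe sets of one gene, 0.49 to either side, and dashed lines are 2-fold. The 2 CCND1 points lie beyond 2-fold, those of CCND3, CCNE1 and CCNE2 lie between the band and 2-fold, and those of RBL1 lie on both sides of 0.

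Counted by probe set, 2 of 21 that passed the filter reached 2-fold higher, both of CCND1, against 9.65% of all 27307 probe sets past the filter, and none was lower, against 5.81%. Of the 28 probe sets, 6 were above background on neither array. CCND3, with an EGR motif, was 1.92-fold higher on arrays on which all probe sets of EGR1 and EGR3 were at least 2-fold higher. CDK4, with 3 E-boxes, read nearly the same on both arrays, and the probe sets of RBL1, with 2 E2F motifs, disagreed. CCND1, the gene called higher, had no window, nor had CCND2 and CCNE2, so the match does not set CCND3 apart from them. A role of EGR factors in the CCND3 value was not tested.

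In 9 lists of the pathway 88 genes were analysed here. The lists were chosen with earlier results of these data known, and the part of that choice in the counts was not tested. Of the 88 genes, 87 passed the filter, all but CCNA1. Of these, 10 (11.5%) were at least 2-fold lower, against 5.34% of all genes, and 3 (3.45%) higher, against 10.4%. Their median log2 ratio was -0.20, against 0.07 over all genes. With the mean over probe sets in place of the brightest one, 6 of these genes were at least 2-fold lower, against 4.35% of all genes in that setting, since E2F3, AMBRA1, CCNT1 and CCNT2 then lay within 2-fold.

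Of 10 E2F and DP factors, most of which bind as pairs to E2F motifs, 1 was called lower, against 5.34% of all genes. None was called higher, against 10.4%, and the median log2 ratio was -0.01. E2F3, an activating E2F that RB1 binds, read 3514 with IRX1::GFP and 7267 in the GFP control. Its second probe set was 819 with IRX1::GFP and 1366 in the GFP control, within 2-fold. E2F7, a repressor E2F, read 8503 with IRX1::GFP and 16427 in the GFP control, E2F2 1952 with IRX1::GFP and 1185 in the GFP control, and the partner TFDP2 1390 with IRX1::GFP and 2076 in the GFP control, all within 2-fold on the brightest probe set. Of the other probe sets of TFDP2 1 was past 2-fold, at 495 with IRX1::GFP and 1039 in the GFP control, and the second of E2F7 read 217 with IRX1::GFP and 230 in the GFP control.

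Among 6 CDK inhibitors 2 (33.3%) were called higher, against 10.4% of all genes, and 2 (33.3%) lower, against 5.34%. CDKN2D (p19) was higher, at 5247 with IRX1::GFP and 945 in the GFP control. CDKN1C (p57) was higher too, at 2319 with IRX1::GFP and 789 in the GFP control. CDKN2B (p15) was lower, at 1105 with IRX1::GFP and 4118 in the GFP control. CDKN1B (p27) was also lower, at 3102 with IRX1::GFP and 10082 in the GFP control. For CDKN2D, CDKN2B and CDKN1B the call rests on 1 probe set each. CDKN2D and CDKN2B both inhibit CDK4 and CDK6, and differed in opposite directions on these single probe sets.

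Cyclin turnover genes held the lowest value of all lists. FBXW7, the subunit of a ubiquitin ligase that recognises cyclin E for degradation, read 1760 with IRX1::GFP and 8169 in the GFP control, 4.64-fold lower. The next 2 probe sets of FBXW7 were lower too, at 769 with IRX1::GFP and 5202 in the GFP control and at 680 with IRX1::GFP and 2717 in the GFP control. The dimmest one was higher, at 747 with IRX1::GFP and 347 in the GFP control. AMBRA1, which directs D cyclins to degradation, read 1548 with IRX1::GFP and 3117 in the GFP control, 2.01-fold lower, and its second probe set 1308 with IRX1::GFP and 2443 in the GFP control. SKP2, which recognises CDKN1B for degradation, read 9415 with IRX1::GFP and 5474 in the GFP control, and CUL1, the scaffold of such ligases, 2738 with IRX1::GFP and 4161 in the GFP control. The second probe set of CUL1 was lower by more than 2-fold, at 513 with IRX1::GFP and 1343 in the GFP control. In all, 2 of these 10 genes were called lower, against 5.34% of all genes, and none higher, against 10.4%, with a median log2 ratio of -0.43.

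The MuvB core, which joins RBL1 or RBL2 to silence cell cycle genes in resting cells, and its partners had the lowest median, -0.54. Of the 9 genes 8 were below 0, as were 5593 of all 12193 genes. Some of the 8 lay above 0 as the mean over their probe sets. LIN54, the DNA-binding subunit of the core, was the 1 gene of 9 called lower, at 210 with IRX1::GFP and 456 in the GFP control. This call rests on 1 probe set, and 210 was just above the background of 179. Of all genes 5.34% were called lower, and 10.4% higher, where none of the 9 was. LIN52 read 4383 with IRX1::GFP and 7619 in the GFP control, and LIN9 1180 with IRX1::GFP and 2000 in the GFP control, both within 2-fold. DYRK1A, the kinase that acts on LIN52, read 8849 with IRX1::GFP and 15167 in the GFP control, within 2-fold. Among 8 genes of CDK2 and CDK activation 1 was called lower, against 5.34% of all genes, and none higher, against 10.4%. This was MNAT1, a subunit of the CDK-activating kinase, at 1559 with IRX1::GFP and 3688 in the GFP control, on 1 probe set. CCNH, another subunit, read 3556 with IRX1::GFP and 5112 in the GFP control, and CDK2 5728 with IRX1::GFP and 7159 in the GFP control. The second probe set of CDK2 went the other way, at 1594 with IRX1::GFP and 1114 in the GFP control. CDC37, a chaperone partner that loads CDK4 onto HSP90, read 6501 with IRX1::GFP and 3509 in the GFP control, 1.85-fold higher.

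Of 9 corepressors that bind pocket proteins 1 was called lower, against 5.34% of all genes, and none higher, against 10.4%. This was ARID4B, at 4198 with IRX1::GFP and 10114 in the GFP control, and all 3 of its probe sets past the filter were lower. KDM5A, a histone demethylase found as an RB1 partner, read 1868 with IRX1::GFP and 2644 in the GFP control, and all 4 of its probe sets were lower, within 2-fold. SMARCA2, a chromatin remodelling ATPase, had probe sets on both sides of 0, from -0.74 to 1.04, with the brightest at 1110 with IRX1::GFP and 1488 in the GFP control. The histone deacetylase HDAC2 read 14728 with IRX1::GFP and 17946 in the GFP control, and its second probe set went the other way, at 424 with IRX1::GFP and 329 in the GFP control.

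None of the 18 E2F target genes passed 2-fold in either direction, where 10.4% of all genes were higher and 5.34% lower. The median log2 ratio of the 18 was -0.17, with 6 above and 12 below 0. Of all 12193 genes, 5593 were below 0, and some of the 18 had probe sets on both sides of 0. CCNE1 and CCNE2, which are E2F targets too, lay at 0.74 and 0.60. The targets went both ways. RRM2, a subunit of ribonucleotide reductase, read 12403 with IRX1::GFP and 6787 in the GFP control. TK1, thymidine kinase, read 9976 with IRX1::GFP and 5365 in the GFP control, and on its second probe set 7160 with IRX1::GFP and 5504 in the GFP control. CCNA2, the cyclin of S phase, read 5043 with IRX1::GFP and 8834 in the GFP control, and POLA1, the catalytic subunit of DNA polymerase alpha, 3119 with IRX1::GFP and 5645 in the GFP control. Of 5 genes of mitosis none was called either, against the same shares of all genes. CDK1 read 11078 with IRX1::GFP and 17288 in the GFP control, with all 4 probe sets lower and within 2-fold, and CCNF read 3946 with IRX1::GFP and 2843 in the GFP control. CDC20 read 14745 with IRX1::GFP and 12318 in the GFP control, and CCNB2 7467 with IRX1::GFP and 6995 in the GFP control.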

How the data were processed

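HEK293T cells expressing IRX1::GFP or GFP were measured on 1 array each. The deposited values are linear intensity values that the authors computed with MAS5, the tool named in the submitters' processing notes. The study's legend gives replicates, and whether each array is 1 of them or a pool was not settled. The MAS5 version is not given in the sources used here. Detection calls were not used here. The number of arrays limits the precision.

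Of 54675 probe sets, 41097 had 1 symbol in the platform annotation, 1801 carried more than 1 and 11777 carried none, and both kinds stayed unnamed. Symbols were updated by gene identifier with RefSeq's GRCh38.p14 gene table, which held 41043. From the signals the log2 ratio, the filter, background and 2-fold calls were computed as described above. No test was made.

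The members and the lists were chosen with earlier results of these data known. Named were all 10 genes and, of each list, the 4 genes with the largest absolute log2 ratio past the filter and each gene at least 2-fold changed with both signals above background.

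Alternatives were median centring, quantile normalization, loess (span 0.3), dropping the filter, filtering at the 75th percentile or on background, raising low signals to a floor of 182.729, the mean over probe sets, only plain _at probe sets, probe sets in place of genes and, added after the data were seen, background at the 95th percentile. The steps were tested on simulated data. Software was matplotlib 3.10.9, statsmodels 0.14.6, scipy 1.17.1, pandas 2.3.3 and numpy 2.4.6 under Python 3.11.15.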

Additional observations from a re-analysis of the deposited data

How the results depend on the processing

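No paired analysis was possible because the comparison is of 2 single arrays, and for the same reason none could be dropped. The count of the 10 genes at least 2-fold higher, 1 as reported, was 2 after loess, where CCND3 joined CCND1. After loess 9.35% of all genes were at least 2-fold higher. The count was 0 when filtering at the 75th percentile, where CCND1 and CDK6 drop out and 8 genes are left. In that setting 6.68% of all genes were at least 2-fold higher. Counted as probe sets it was 2 of 21, against 9.65% of all probe sets past the filter. The count of lower ones was 0 under each alternative it was computed for. The share of all genes at least 2-fold lower ran from 4.35% with the mean over probe sets to 10.0% with no filter. The background at the 95th percentile was run for the fold of CCND1 only. The count of list genes at least 2-fold lower, 10 as reported, was 6 with the mean over probe sets and 8 after quantile normalization. It was 8 after loess and 9 when filtering at the 75th percentile. In these settings, in this order, 4.35%, 5.78%, 5.63% and 5.41% of all genes were at least 2-fold lower. Over 9 settings 86 log2 ratios of single genes were recomputed, and none moved by more than 0.49, the SD of probe sets for the same gene. Many of these values could not move. Dropping or changing the filter keeps the same probe set for a gene and so the same ratio. The floor changed only CCND1, and the plain _at setting changed none. RBL1 moved farthest, from -0.44 to 0.04 as the mean over probe sets. The sign was kept in 82 of the 86. The exceptions were RB1 after quantile normalization and loess, and RBL1 and RBL2 as the mean over probe sets. The log2 ratio of CCND1 ranged from 1.97, with low signals raised to a floor, to 2.41 as the mean over probe sets, and that of CCND3 from 0.90 to 1.01. With only plain _at probe sets CCND2 and CDK4 had no value. Dim signal limits CCND1, whose signals in the GFP control lay about background, and the dimmer probe sets of CDK6.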

Other observations

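Outside the G1 core, 12 other cyclin genes passed the filter, of which 1 was at least 2-fold higher, against 10.4% of all genes, and 2 lower, against 5.34%, with a median log2 ratio of -0.31. CCNT1 and CCNT2, the cyclins of the elongation kinase P-TEFb, were both lower. CCNT1 read 4178 with IRX1::GFP and 10463 in the GFP control, and its second probe set 746 with IRX1::GFP and 1152 in the GFP control. CCNT2 read 1848 with IRX1::GFP and 4111 in the GFP control, and 2 of its 3 probe sets that passed the filter reached 2-fold lower. CCNL1, a cyclin of splicing-linked kinases, read 8611 with IRX1::GFP and 14105 in the GFP control, within 2-fold. All 4 probe sets of CCNL1 were lower, 1 of them by more than 2-fold, at 1090 with IRX1::GFP and 2725 in the GFP control. CCNO, a cyclin of multiciliated cells, was 3.48-fold higher on 1 probe set, at 695 with IRX1::GFP and 200 in the GFP control.

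RB1-DT, the divergent transcript beside RB1, read 206 with IRX1::GFP and 264 in the GFP control on its brighter probe set, 1.28-fold lower. This log2 ratio of -0.36 lay within the SD of 0.49, and 206 was just above the background of 179. The other probe set of RB1-DT was above background on neither array. RB1 itself read nearly the same on both arrays, and these values do not set RB1-DT apart from it. RB1-DT was named after its values were seen.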
